A study of Mus musculus with 12 samples.

Results

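The Hedgehog pathway genes followed here were *Gli1*, *Gli2*, *Gli3*, *Ptch1*, *Smo*, *Sufu* and *Hhip*, which were found by gene name in the deposited count table. They were 7 of its 54447 features. RNA was sequenced from mouse fibroblasts that carried N-VEGF, the stretch at the N terminus of the long VEGF protein, or NLS-N-VEGF, that stretch fused to a nuclear localization sequence. The labels call the cells mouse embryonic fibroblasts, and the study's methods name NIH3T3, an established mouse fibroblast line. Both sequences were carried by lentivirus behind a *Tet*-on promoter that doxycycline (dox) switches on, so all 12 libraries came from transduced cells and no library came from cells without a construct. The 4 groups of 3 libraries were NLS-N-VEGF cells without dox, NLS-N-VEGF cells with dox, N-VEGF cells without dox and N-VEGF cells with dox (dox for 16 h). Each group held libraries 1 and 2 with the title suffix _120519 and a library 2 with the title suffix _290419, and the labels do not say what the suffix stands for. The labels also do not say whether the libraries of a group came from separate cultures, so p-values measure the spread between these libraries, which may be technical.

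In the Hedgehog pathway, a secreted Hedgehog ligand binds the receptor Ptch1 and relieves the block that Ptch1 places on the membrane protein Smo. Active Smo releases the Gli transcription factors from the inhibitor Sufu at the primary cilium. Gli2 acts mainly as an activator, Gli3 mainly as a repressor in its processed form, and *Gli1*, *Ptch1* and *Hhip* are widely used readouts because pathway activity raises their transcription. Fibroblasts of this kind are a common test system for the pathway, since they respond to added ligand.

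Total counts lay between 13549331 and 18982127 per library. Levels are in CPM, counts scaled to 1000000 counts of the library. A floor of 3 counts per library corresponded to 0.158 to 0.221 CPM, and intervals from counts cover counting error only. Normalised CPM, used for all levels unless stated, is CPM after scaling by the trimmed mean of M-values. The construct row held 5 to 12 counts per library without dox, 35 to 173 in NLS-N-VEGF cells with dox and 121 to 268 in N-VEGF cells with dox, so it followed the labels. All 10 fibroblast markers averaged at least 1 CPM in each group, with a summed level of 11254 to 14228 CPM per library. Markers of epithelium, endothelium, blood and muscle summed to at most 5.62 CPM in any library. The 4 markers of nerve and glia summed to 22.2 to 33.6 CPM, and 2 of the 4 averaged at least 1 CPM. RNA per cell and number of cells cannot be told apart in bulk RNA.

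The 3 Gli genes are paralogs, so the stretches that they share are shown to let a reader see how far their reads can be told apart. Over the annotated coding transcripts, the longest identical run was 25 bases between *Gli2* and *Gli3*, 23 bases between *Gli1* and *Gli2* and 14 bases between *Gli1* and *Gli3*. All of these runs lay inside coding sequence, and each was shorter than the single reads of the study. The window of 30 bases around the longest run, in the part that encodes the zinc fingers with which these factors bind DNA, reads as follows in GENCODE transcripts, with capitals at bases that differ from *Gli2*.
*Gli2*, chr1:118846009-118846038, minus strand, GRCm38: agaagaaggagttcgtgtgccgctggcagg
*Gli3*, chr13:15713527-15713556, plus strand, GRCm38: aAaagaaggagttcgtgtgccgctggcTTg
*Gli1*, chr10:127336055-127336084, minus strand, GRCm38: agCGgaaggaAttcgtgtgccATtggGGAg
The *Gli3* window differed from that of *Gli2* at 3 bases and the *Gli1* window at 8, and each window lay in 1 exon.

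The genes lie apart from each other, in build GRCm38. *Gli1* (ENSMUSG00000025407) spans chr10:127329882-127341974, *Gli2* (ENSMUSG00000048402) chr1:118834132-119053619 and *Gli3* (ENSMUSG00000021318) chr13:15463235-15730026. *Ptch1* (ENSMUSG00000021466) spans chr13:63508328-63573598, *Smo* (ENSMUSG00000001761) chr6:29735503-29761365, *Sufu* (ENSMUSG00000025231) chr19:46396896-46488804 and *Hhip* (ENSMUSG00000064325) chr8:79965851-80058006. The library kit does not mark strand, and 6.547% of the exon bases of *Gli1* are shared with antisense genes (*Arhgap9* and *Gm47200*), so a part of its reads could belong to them. The share was 1.961% for *Gli3*, 1.928% for *Hhip* and 0% for *Gli2*, *Ptch1*, *Smo* and *Sufu*. RefSeq promoter windows, from 250 bases before to 50 bases after the start, were matched for 6 genes and not for *Gli1*. The windows of *Ptch1* (chr13:63565686-63565985) and *Gli3* (chr13:15463473-15463772) lay inside the gene spans above, so the sequence before those spans was not searched. The Gli motif GACCACCCA, searched on both strands, was in none of the 6 windows, even with 1 mismatch allowed. It occurred in 83 of 32851 promoter windows of the same length (0.253%), and in 6.74% of them with at most 1 mismatch.

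Per length of exon, *Smo*, the membrane transducer, was the most abundant of the 7 transcripts, at 31.3 ± 1.99 CPM per kilobase (SD, n = 12). *Gli3* followed at 5.51 ± 0.840, *Sufu* at 4.54 ± 0.254, *Ptch1* at 1.92 ± 0.318, *Gli2* at 1.65 ± 0.308 and *Gli1* at 0.421 ± 0.114 CPM per kilobase. *Hhip*, a membrane-anchored protein that binds and sequesters Hedgehog ligands, was under the floor of 3 counts in each library, with 3 counts in 12 libraries together. In this order, the ranges of *Gli3* and *Sufu* overlapped, and so did those of *Ptch1* and *Gli2*. The higher gene of each of these pairs was above the lower one in 10 of 12 libraries, while all other neighbours were separated in 12 of 12. The lengths count every annotated exon, and the longer this sum is relative to the transcripts in use, the lower the value per kilobase.

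**Figure D1:**
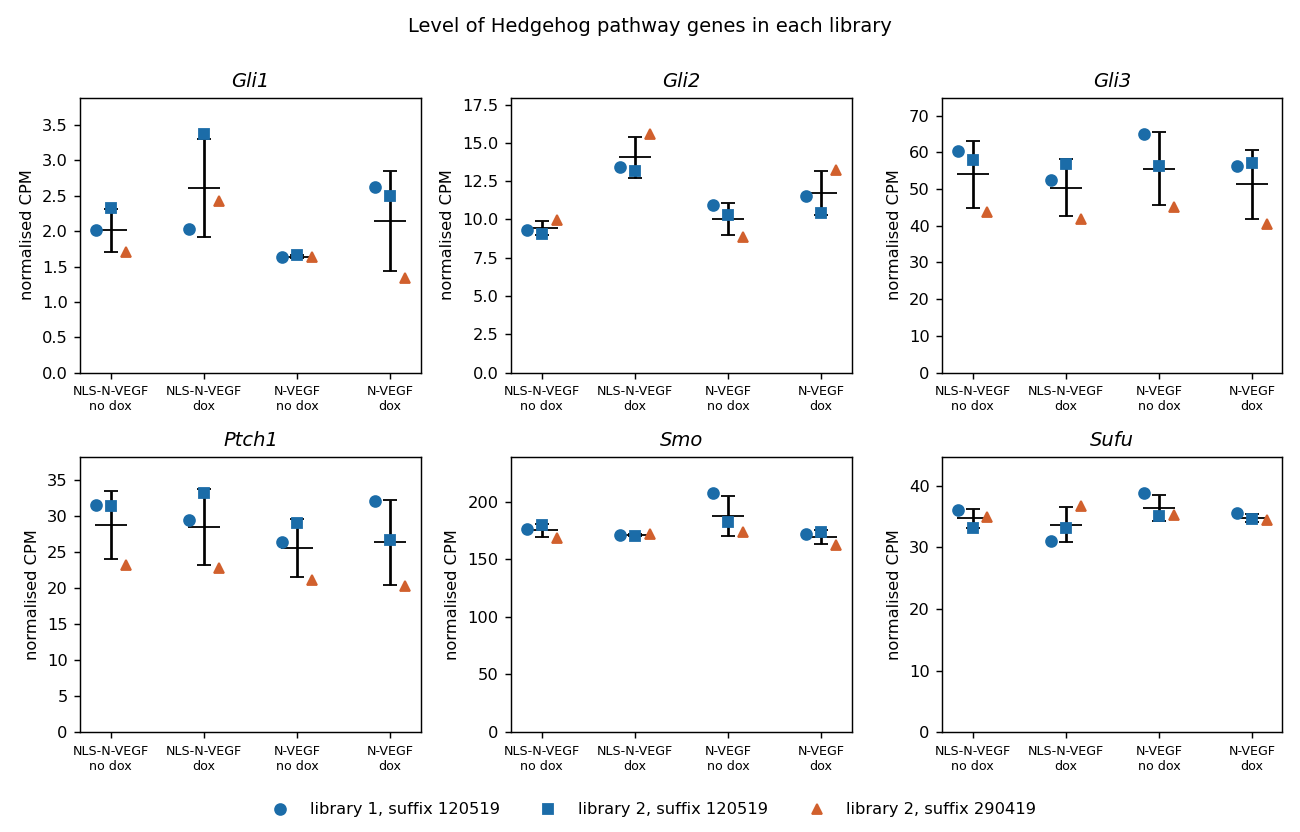
Normalised CPM of the 6 tested genes in each of the 12 libraries (vertical axes from 0, on a scale of their own), by group, with the bar at the mean and the whisker at 1 SD of 3 libraries. *Gli2* is higher in the NLS-N-VEGF libraries with dox (13.2 to 15.6 CPM) than in those without (9.04 to 9.98 CPM), and *Gli3* and *Ptch1* are lowest in the suffix _290419 library of every group.

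With no dox-treated library free of a construct, dox itself and N-VEGF cannot be told apart. The study found only a part of NLS-N-VEGF in the nuclear fraction with dox. Whether the transcription factors differed with dox was examined first. In NLS-N-VEGF cells *Gli2* gave the largest difference of the 3. In NLS-N-VEGF cells without dox its level was 9.30 and 9.04 CPM in libraries 1 and 2 of suffix _120519 and 9.98 CPM in the library of suffix _290419. With dox the same labels gave 13.4, 13.2 and 15.6 CPM. The 2 groups did not overlap, and this order, all 3 dox libraries above all 3 others, was found for 4.78% of the 13608 genes tested. The fitted log2 fold change was 0.58 with an SE of 0.13 and a 95% interval from 0.29 to 0.86, a fold change of 1.49. Its adjusted p was 0.9998 by edgeR's quasi-likelihood test over all genes, so *Gli2* was not called, although its unadjusted p was 0.000906.

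In N-VEGF cells, *Gli2* stood at 10.9, 10.3 and 8.85 CPM without dox and at 11.5, 10.4 and 13.2 CPM with dox. These groups overlapped, and the 3 log2 ratios of libraries with the same label were 0.08, 0.02 and 0.58, so the suffix _290419 pair alone gave a ratio like that of NLS-N-VEGF cells, where the ratios were 0.53, 0.54 and 0.64. The fitted log2 fold change in N-VEGF cells was 0.23 with an SE of 0.13 (95% interval from -0.06 to 0.51, adjusted p = 0.9999). Subtracting this effect from the one in NLS-N-VEGF cells gave 0.35, with an interval from -0.06 to 0.76 (adjusted p = 0.9999), so a difference between the populations was not shown for *Gli2*. *Gli2* is on a gene list that the study drew from these same libraries, and its direction here is not independent evidence for that list. The study set the list at a larger fold change than those fitted here and at an adjusted p under 0.05. The *Gli2* fits in NLS-N-VEGF and N-VEGF cells given so far met neither cutoff.

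**Figure D2:**
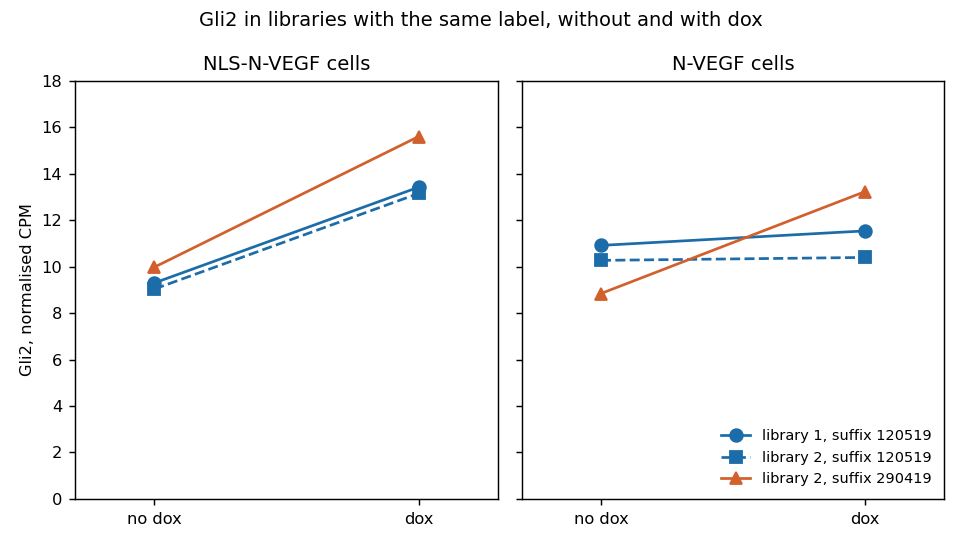
Normalised CPM of *Gli2* without and with dox, with lines joining libraries that carry the same number and suffix (3 per population). All 3 lines rise in NLS-N-VEGF cells (log2 ratios of 0.53, 0.54 and 0.64), while in N-VEGF cells the suffix _290419 line rises by 0.58 and the others by 0.08 and 0.02.

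Libraries with the same number and suffix deviated from their group means together, as did libraries of suffix _120519 with different numbers, and a fit with that label as a replicate block changed the call of *Gli2* in the mean dox effect of both populations. Without the block the log2 fold change of this mean was 0.40 with an SE of 0.09 (adjusted p = 0.626). With the block it was 0.40 with an SE of 0.09 and an adjusted p of 0.0478, and *Gli2* was called higher, as 1 of the 77 genes called (0.566% of the 13608 tested). This call was lost in 11 of 12 fits with the block that left out 1 library, where the adjusted p lay between 0.0174 and 0.182, and with RLE size factors in the blocked fit it was 0.0519. In NLS-N-VEGF cells alone the blocked log2 fold change was 0.57 (adjusted p = 0.0954), where 0.125% of genes were called. In 12 blocked fits that each left out 1 library, *Gli2* was called there in 2, with adjusted p between 0.0258 and 0.627. These 2 left out an N-VEGF library without dox, either library 1 of suffix _120519 or the suffix _290419 library. Their adjusted p was 0.02598 and 0.02581, where 57 of 13947 and 30 of 13844 tested genes were called. In the libraries of suffix _120519 alone, the log2 fold change was 0.53 in NLS-N-VEGF cells (adjusted p = 0.0814) and the mean of both populations was 0.28.

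*Gli3*, whose protein is the main repressor form in cells without ligand, stood in NLS-N-VEGF cells at 60.5, 57.9 and 43.6 CPM before dox, against 52.5, 57.0 and 41.9 CPM in the dox libraries. N-VEGF cells gave 65.1, 56.2 and 45.2 CPM before dox, against 56.4, 57.1 and 40.4 CPM after it. The groups overlapped in both populations, and in each group the third value, from suffix _290419, was the lowest. The log2 fold change with dox was -0.10 in NLS-N-VEGF cells (95% interval from -0.50 to 0.29) and -0.11 in N-VEGF cells (from -0.51 to 0.28), and neither was called. With the block these intervals narrowed to between -0.26 and 0.06 and between -0.28 and 0.04, and neither was called there. The ratio of *Gli2* to *Gli3* per length, which does not depend on library scaling, stood in NLS-N-VEGF cells at 0.215, 0.218 and 0.319 before dox, against 0.357, 0.322 and 0.521 after it. The ratio was higher with dox in 3 of 3 pairs with the same label, and the groups did not overlap. The highest value without dox (0.319, suffix _290419) lay close to the lowest with dox (0.322, suffix _120519). Since the ratio uses the same *Gli2* counts as above, it is not separate evidence of a change in *Gli2*. In N-VEGF cells the ratio was 0.234, 0.255 and 0.273 without dox and 0.286, 0.254 and 0.458 with dox, with overlap.

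*Gli1*, both a Gli factor and the most direct transcriptional readout of the pathway, had only 20 to 46 counts per library. NLS-N-VEGF cells gave 2.01, 2.32 and 1.71 CPM before dox, against 2.03, 3.38 and 2.42 CPM after it. N-VEGF cells gave 1.63, 1.66 and 1.63 CPM before dox, against 2.62, 2.49 and 1.34 CPM after it. The dox groups held both the highest and the lowest library of all 12. They were library 2 of suffix _120519 in NLS-N-VEGF cells (46 counts, Wilson 95% interval before scaling from 2.55 to 4.53 CPM) and the suffix _290419 library in N-VEGF cells (20 counts, from 0.868 to 2.07 CPM). The log2 fold change with dox was 0.36 in NLS-N-VEGF cells (95% interval from -0.26 to 0.99) and 0.39 in N-VEGF cells (from -0.24 to 1.03). The mean of both populations was 0.38 (from -0.07 to 0.82), and 0.37 with the block (from -0.006 to 0.74). This mean was close in size to the 0.40 of *Gli2*, and it was called in neither fit. With so few counts the intervals of *Gli1* were the widest of the 6.

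The receptor *Ptch1*, which is also a feedback target, stood in NLS-N-VEGF cells at 31.5, 31.4 and 23.2 CPM before dox, against 29.4, 33.2 and 22.8 CPM after it. N-VEGF cells gave 26.4, 29.0 and 21.1 CPM before dox, against 32.0, 26.7 and 20.3 CPM after it. Dox groups and groups without dox overlapped throughout, with log2 fold changes of -0.02 (95% interval from -0.44 to 0.40) and 0.05 (from -0.38 to 0.47). With the block the interval in NLS-N-VEGF cells narrowed to between -0.21 and 0.18.

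*Smo* had the narrowest spread in NLS-N-VEGF cells with dox, at 171 ± 0.764 CPM (SD, n = 3), against 175 ± 5.80 without dox. In N-VEGF cells it was 188 ± 17.4 CPM without dox and 169 ± 5.88 with dox, and library 1 of suffix _120519 without dox, at 207 CPM, was the highest of all 12. The N-VEGF groups did not overlap, with 207, 182 and 174.03 CPM without dox above 172, 173.89 and 163 CPM with it, and the log2 ratios of the same labels were -0.27, -0.07 and -0.10. Its log2 fold change was -0.03 (95% interval from -0.21 to 0.14) and -0.15 (from -0.32 to 0.03). *Sufu*, the cytoplasmic inhibitor of the Gli proteins, ranged in NLS-N-VEGF cells from 33.1 to 36.1 CPM before dox, against 31.1 to 36.8 CPM after it. In N-VEGF cells the ranges were 35.0 to 38.8 and 34.4 to 35.6 CPM, and the groups overlapped in both populations. Its log2 fold changes were -0.04 (from -0.23 to 0.15) and -0.06 (from -0.25 to 0.13).

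*Hhip* had 2 counts in NLS-N-VEGF cells without dox (library 2 of suffix _120519), 1 count in the same label with dox and 0 in the other 10 libraries. Over all 12 libraries this came to 0.0153 CPM (exact 95% interval from 0.00316 to 0.0449). It did not pass the filter on low counts, both populations were under the floor of 3 counts per library with and without dox, and no fold change is given.

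**Figure D3:**
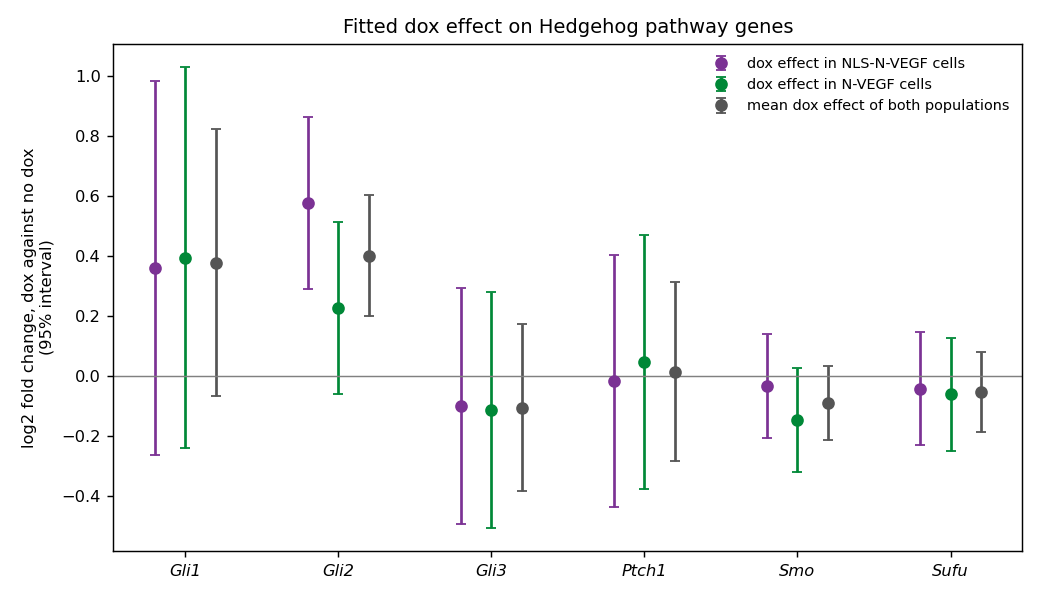
Fitted log2 fold change of the 6 tested genes with dox against no dox (points) with 95% intervals (bars), in NLS-N-VEGF cells, in N-VEGF cells and as the mean of both. Only the *Gli2* intervals for NLS-N-VEGF cells (0.29 to 0.86) and for the mean (0.20 to 0.60) lie above 0, before adjustment over all genes, and the widest intervals are those of *Gli1*.

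Counted over the 6 tested genes, edgeR called 0 with dox in NLS-N-VEGF cells, where 0.022% of all tested genes were called, 0 in N-VEGF cells (0.0367% of all genes) and 0 in the mean of both (0.0588%). The difference of the dox effects gave 0, as did the contrast of both populations at each dox state, and in these 3 comparisons 0% of all genes were called. At an unadjusted p under 0.05, 1 of the 6 (*Gli2*) passed in NLS-N-VEGF cells and in the mean, where 318 and 423 of all 13608 tested genes passed. In the other 4 comparisons 0 of the 6 passed, where 82 to 201 of all tested genes did. DESeq2 called 0 of the 6 in each of them. Between the populations, the 6 log2 fold changes lay between -0.05 and 0.26 with dox and between -0.10 and 0.30 without dox. All 3 dox libraries were above all 3 others for 2.13% of genes in N-VEGF cells, and for 0 of the 6 genes there, while all 3 were below all 3 others for 1.79% of genes and for 1 of the 6, *Smo*. In NLS-N-VEGF cells all 3 dox libraries were below all 3 others for 4.48% of genes and for 0 of the 6.

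The suffix of the library title separated the same genes in another way. *Gli3* and *Ptch1* were lower in the 4 libraries of suffix _290419 than in the 8 of suffix _120519, and the other 4 tested genes were not called. In suffix _120519 *Gli3* ranged from 52.5 to 65.1 CPM with a median of 57.0, and in suffix _290419 it was 43.6, 41.9, 45.2 and 40.4 CPM in the order of the groups above. Every library of suffix _290419 was below every library of suffix _120519. *Ptch1* did the same, with 26.4 to 33.2 CPM and a median of 30.4 in suffix _120519, and 23.2, 22.8, 21.1 and 20.3 CPM in suffix _290419. Such a complete separation downwards was found for 14.9% of all tested genes. With a term for the suffix beside the groups, the log2 fold change was -0.43 with an SE of 0.06 for *Gli3* (95% interval from -0.55 to -0.32, edgeR adjusted p = 1.56e-05) and -0.45 with an SE of 0.07 for *Ptch1* (from -0.60 to -0.31, adjusted p = 5.96e-05).

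These 2 calls stand in a comparison in which 45.6% of all tested genes were called, 23.5% lower and 22.2% higher, so 2 of 6 is not more than in the rest of the genes. Within the groups the log2 ratio of the suffix _290419 library to the mean of the other two was -0.44, -0.39, -0.42 and -0.49 for *Gli3* and -0.44, -0.46, -0.39 and -0.53 for *Ptch1*. The decrease was therefore present in all 4 groups and with similar size with and without dox. Both genes stayed called in 16 of 16 alternative fits, among them one with only the libraries numbered 2, where *Gli3* fell by 0.42 (adjusted p = 4.88e-05) and *Ptch1* fell by 0.47 on the log2 scale (adjusted p = 7.35e-05).

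**Figure D4:**
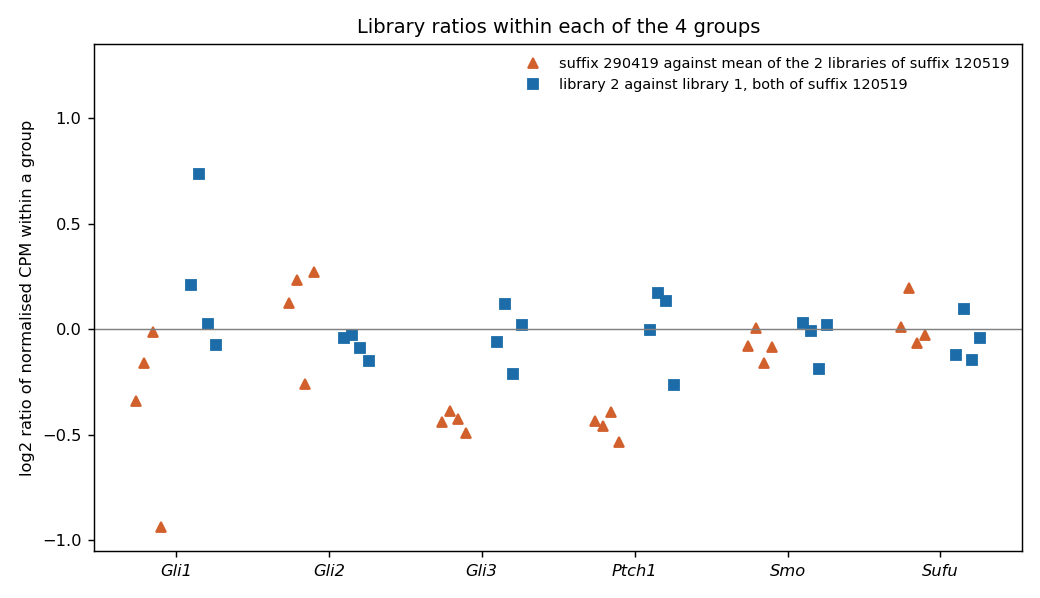
Log2 ratios of normalised CPM within each of the 4 groups (1 point per group), for the suffix _290419 library against the mean of the 2 libraries of suffix _120519 (triangles) and for library 2 against library 1 of suffix _120519 (squares). The triangles of *Gli3* (-0.49 to -0.39) and *Ptch1* (-0.53 to -0.39) lie together below 0, while those of *Gli1* spread from -0.93 to -0.01 and the squares fall on both sides of 0 for all genes but *Gli2*, whose 4 squares are between -0.15 and -0.03.

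*Gli1* had a log2 fold change of -0.33 between the suffixes (95% interval from -0.74 to 0.07, adjusted p = 0.166), and its within-group ratios of -0.34, -0.16, -0.01 and -0.93 were far more uneven than those of *Gli3*. *Gli2* differed by 0.10 (from -0.09 to 0.29, adjusted p = 0.365), with ratios of 0.12, 0.23, -0.26 and 0.27. For *Smo* the difference was -0.08 (from -0.19 to 0.03) and for *Sufu* 0.03 (from -0.10 to 0.16). Libraries 2 and 1 of the same suffix served as a reference for the spread between libraries. There edgeR and DESeq2 called 0 of 6 (0% of 13387 genes). At an unadjusted p under 0.05 there were 0 of 6, beside 725 of the 13387 genes by edgeR. The log2 fold changes lay between -0.08 and 0.23, the latter for *Gli1*.

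The wider pathway was read from a list of 60 further genes in the table, of which 50 passed the filter. No Hedgehog ligand did. *Shh* had 0 counts in 12 libraries, *Ihh* had 22 counts in all with 0 to 4 per library, and *Dhh* had 72 with 2 to 11 per library. Genes for ligand processing and release were present in part. *Hhat*, the acyltransferase that modifies the ligand, stood at 17.5 to 21.8 CPM. *Disp1*, with 1498 counts in all, and *Disp2*, with 108 in all and 3 to 17 per library, also passed the filter. *Scube1*, *Scube2* and *Scube3* did not, with 1, 13 and 51 counts in all.

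With dox, edgeR called 0 of the 50 in NLS-N-VEGF cells, in N-VEGF cells and in the mean of both. At an unadjusted p under 0.05 there were 1, 1 and 4 of 50, beside 318, 201 and 423 of all 13608 tested genes. DESeq2 called 0 of the 50 as well in each of the 3. The median log2 fold change of the 50 in the mean dox effect was -0.01, beside 0.004 over all tested genes. With the replicate block 1 of the 50 was called in the mean dox effect, *Gas1*, a co-receptor that helps present the ligand to Ptch1, where 0.566% of all tested genes were called. It was named after its values were seen. *Gas1* stood in NLS-N-VEGF cells at 378, 381 and 219 CPM before dox, against 233, 208 and 208 CPM after it. N-VEGF cells gave 448, 405 and 208 CPM before dox, against 314, 308 and 143 CPM after it. The blocked log2 fold change was -0.50 with an SE of 0.11 (adjusted p = 0.0432). The dox library was the lower in 6 of 6 pairs with the same label, which rests on the same values and is not separate support. Without the block it was -0.53 with an adjusted p of 0.99996. The blocked call was lost in 10 of 12 fits that left out 1 library, where the adjusted p lay between 1.68e-05 and 0.189. The suffix _290419 pair of NLS-N-VEGF cells differed little. In the same blocked comparison 2 of 10 fibroblast markers were called, both lower, *Dcn* at -0.54 (SE 0.09, edgeR adjusted p = 0.00578) and *Pdgfra* at -0.49 (SE 0.08, adjusted p = 0.00419). At an unadjusted p under 0.05 there were 6 of 10, beside 1266 of all 13608 tested genes. Without the block edgeR called 0 of the 10, and DESeq2 called *Dcn*. At an unadjusted p under 0.05 by edgeR there were 2 of 10, beside 423 of all 13608 tested genes. The summed level of the 10 markers ranged from 12466 to 13011 CPM without dox and 11254 to 13185 CPM with it in NLS-N-VEGF cells, and from 12105 to 14228 and 11559 to 12422 CPM in N-VEGF cells. The part of these markers in the values of *Gas1* and *Gli2* was not tested.

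By suffix, 27 of the 50 were called, 21 lower and 6 higher in suffix _290419, where 45.6% of all tested genes were called, 23.5% lower and 22.2% higher, and the median log2 fold change was -0.14, beside 0.005 over all tested genes. The lower calls were spread over the classes, and in each class their share was above the 23.5% of all tested genes called lower. They took in 3 of 5 co-receptors and related receptors, 6 of 11 cilium genes, 7 of 21 signal transduction genes, 4 of 10 common targets and 1 of 3 genes of ligand release. Of the 6 higher calls, 5 were signal transduction genes and 1 was a common target.

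The 4 genes with the largest decrease were 2 transcription factors used as pathway targets in other tissues, an arrestin and a transport protein of the cilium. *Foxf1* fell by 0.96 on the log2 scale (SE 0.22, adjusted p = 0.00189), from 1.78 ± 0.603 CPM (SD, n = 8) to 0.900 ± 0.320 (n = 4). *Osr2* fell by 0.95 (SE 0.20, adjusted p = 0.00128), from 4.45 ± 1.24 to 2.28 ± 0.734 CPM. *Arrb1*, which encodes the arrestin that takes part in moving Smo, fell by 0.89 (SE 0.10, adjusted p = 3.85e-06), from 11.4 ± 0.884 to 6.14 ± 0.477 CPM. *Ift172*, a subunit of the intraflagellar transport machinery, fell by 0.86 (SE 0.08, adjusted p = 7.03e-07), from 42.9 ± 3.12 to 23.6 ± 2.59 CPM. The ranges of *Arrb1* and *Ift172* did not overlap between the suffixes, and those of *Foxf1* and *Osr2* did.

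Higher in suffix _290419 were *Ulk3*, a kinase that acts on Gli proteins, at 0.50 on the log2 scale (SE 0.11, adjusted p = 0.00179), and *Spop*, the substrate adaptor that leads Gli2 and Gli3 to degradation, at 0.26 (SE 0.05, adjusted p = 0.00108). Its partner *Cul3*, the scaffold of the same ubiquitin ligase, was higher by 0.17 (SE 0.06, adjusted p = 0.0224). *Evc*, a ciliary protein that binds Smo, was higher by 0.23 (SE 0.05, adjusted p = 0.00175). All 4 increases were under 1.5-fold.

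**Figure D5:**
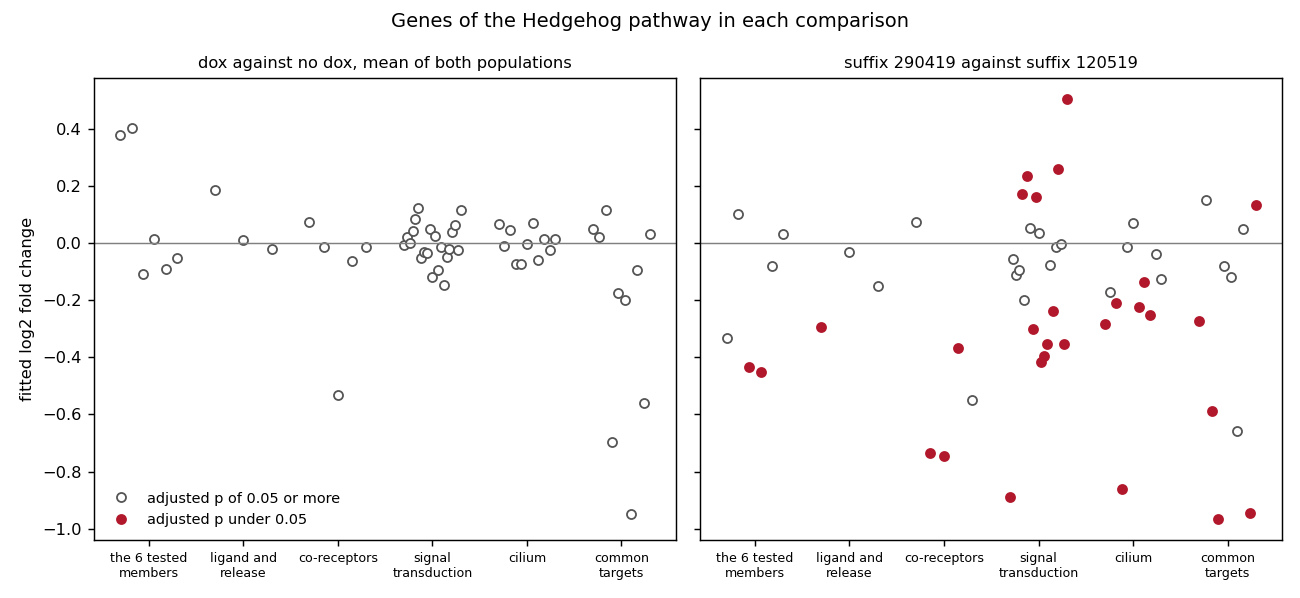
Fitted log2 fold changes (vertical axis) of the 6 tested genes and of 50 further pathway genes by class, for the mean dox effect (left) and for suffix _290419 against suffix _120519 (right), each point a gene. No point is filled at left, where 0 of 56 passed an adjusted p of 0.05, and 29 of 56 are filled at right, 23 of them below 0.

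With 45.6% of all tested genes called by suffix, genes outside the pathway were called too. Of 12 cell cycle genes, 5 were called, a share near that of all genes, 3 higher and 2 lower, with a median log2 fold change of 0.08. Of 10 fibroblast markers, 7 were called, 3 higher and 4 lower, with *Pdgfra* at -1.32 and *Col3a1* at -1.22 as the largest decreases and *Thy1* at 0.53 as the largest increase. Blood markers summed to 5.28 to 5.62 CPM in suffix _290419 and 2.43 to 3.58 CPM in suffix _120519, with 2 of 5 at 0 counts in every library of each suffix, and muscle markers to 0.887 to 1.61 and 0.369 to 0.565 CPM with 2 of 4 at 0. Epithelial markers summed to 3.25 to 3.78 and 2.03 to 3.32 CPM, and nerve and glia markers to 25.4 to 33.6 and 22.2 to 27.4 CPM. Most of the blood sum was *Cd68*, at a mean of 5.19 CPM in suffix _290419 and 2.94 CPM in suffix _120519. *Tubb3*, at 27.5 and 22.3 CPM, made up most of the nerve and glia sum. The part of these shifts in the differences of *Gli3* and *Ptch1* was not tested.

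The genes whose pattern was most like that of *Gli2* were taken from the 9953 genes that averaged 5 CPM or more, by Pearson's r of log2 CPM over the 12 libraries after subtracting the mean of libraries with the same suffix. Among the most alike were *Arhgef2* (r = 0.93), *Phldb1* (0.91), *Itpr3* (0.91) and *Dagla* (0.91). Among the pathway genes, r with *Gli2* was -0.56 for *Gli3*, -0.26 for *Smo*, -0.15 for *Sufu* and 0.08 for *Ptch1*, and *Gli1* was below the minimum level. These are descriptions over libraries that share depth and scaling.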

How the data were processed

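RNA was measured in 12 TruSeq libraries of mouse fibroblasts, 3 per group. Per the labels and the study's methods, the authors trimmed single reads with Trim Galore (cutadapt 1.10), aligned them to GRCm38 with TopHat2 2.1.0 and Bowtie2 2.2.6, and deposited raw counts per gene from HTSeq 0.6.1, with no normalisation. Whether the counting used strand is not given in the sources used here.

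The counts were tested in R 4.3.3 with edgeR 4.0.16, using filterByExpr (13608 genes kept, 6 of the 7 members among them), TMM scaling (trimmed mean of M-values) and quasi-likelihood F tests on 4 group means. All libraries shared 1 estimate of the spread. For the title suffix a term was added to the groups, and libraries 2 and 1 were compared within suffix _120519. A gene was called at an adjusted p (Benjamini-Hochberg over all tested genes of a comparison, two-sided) under 0.05, and 95% intervals come from the same fit. Alternatives were the Wald test of DESeq2 1.42.0, the tool the authors used, RLE size factors, no filter beyond 1 count, a replicate block, a suffix term, subsets by suffix or number, and each library left out. The procedure was tested on simulated data with known changes. The changes put in were all larger than those fitted for *Gli2* with dox, and the simulated dox comparison held no suffix difference.

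To check the pairing, which comes from the library titles, deviations from group means were correlated over 12057 genes that averaged 1 CPM or more. In all 18 pairs of libraries with the same number and suffix r lay between 0.348 and 0.805, so the labels were taken to pair the libraries and the blocked fit was read beside the unblocked one. The 12 pairs with different numbers within suffix _120519 also had r from 0.165 to 0.629, against 0.348 to 0.627 for the same number there, and the 24 pairs with different suffixes from -0.72 to -0.34. The correlations thus follow the suffix, and do not separate the library numbers within it.

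The 7 genes were always described. Other pathway genes were named where they passed the threshold with dox or between populations, or were among the 4 largest changes on each side by suffix, and ligands were given with their counts. Members and lists were chosen with earlier results of these data known. Coordinates and exon lengths are from GENCODE release 21 for mouse and matched the deposited coordinates for 7 of 7 genes. Some genes that these rules name are not reported here.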

Additional observations from a re-analysis of the deposited data

How the results depend on the processing

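*Gli3* and *Ptch1* were called lower in suffix _290419 in 16 of 16 alternatives. In every alternative run, 0 members were called in N-VEGF cells, in the difference of the dox effects, between the populations and between libraries 2 and 1. The mean dox effect went from 0 members called to 1 (*Gli2*) with the replicate block and with the title suffix as a term, and the block changed no other member's call. With the block and 1 library left out, a setting chosen after the data were seen, 0 to 1 members were called in NLS-N-VEGF cells and 0 to 1 in the mean.

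With 1 library left out, some log2 fold changes with dox that were not called changed sign. For *Gli3* they ran from -0.24 to 0.0177 in NLS-N-VEGF cells and from -0.26 to 0.0302 in N-VEGF cells, and for *Sufu* from -0.1105 to 0.0117 in NLS-N-VEGF cells. For *Ptch1* they ran from -0.15 to 0.12 in NLS-N-VEGF cells, from -0.12 to 0.20 in N-VEGF cells and from -0.0686 to 0.0911 in the mean. With the block as well, *Ptch1* reached 0.0397 and *Sufu* 0.0437 in NLS-N-VEGF cells, and the mean for *Ptch1* took the values -0.00236, -0.0238, -0.0254 and -0.0483. The *Sufu* difference by suffix ran from -0.0289 to 0.0578 and was -0.00285 with no filter beyond 1 count. The cause was not tested.

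Counts over all genes moved more. In NLS-N-VEGF cells, N-VEGF cells and the mean, 3, 5 and 8 genes were called, against 11, 8 and 20 by DESeq2, 53, 36 and 77 with no filter, 17, 15 and 77 with the block, 17, 16 and 74 with the block and RLE size factors, 15, 13 and 73 with the suffix term, and 109, 16 and 135 in suffix _120519 alone. Leaving out 1 library gave 0 to 3, 1 to 7 and 5 to 9, and with the block 6 to 118 in NLS-N-VEGF cells and 31 to 202 in the mean. Between the populations with dox the count went from 0 to 9 with no filter, 2 with the block, the block with RLE size factors or the suffix term, and 11 in suffix _120519 alone. Without dox it went from 0 to 10 with no filter and 5 in that suffix alone. The difference of the dox effects went from 0 to 1 and 4 in those same settings, and libraries 2 and 1 from 0 to 74 with no filter. Few counts limit what can be seen for *Gli1* and *Hhip*.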

Other observations

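Beside *Gas1*, 3 of the 10 common target genes tested had an unadjusted p under 0.05 in the mean dox effect of both populations. Of the 10, 4 were fitted higher with dox. At that level 423 of all 13608 tested genes passed. The 3 genes are named after their values were seen. The log2 fold change of *Mycn*, a transcription factor of the Myc family, was -0.95 (SE 0.36, edgeR unadjusted p = 0.0225). The gene had 88 counts in 12 libraries together and 3 to 14 per library, so its lowest library was at the floor of 3 counts. *Foxf1* and *Foxf2* encode forkhead transcription factors. *Foxf1* gave -0.70 (SE 0.31, edgeR unadjusted p = 0.0456) and *Foxf2* gave -0.17 (SE 0.07, edgeR unadjusted p = 0.0232). None of the 3 passed adjustment over all genes, where the adjusted p of edgeR was 0.99996 for each.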
